A study of Mus musculus with 8 samples.

Results

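Prdm1, Prdm14 and Tfap2c are the transcription factors that set mouse primordial germ cells (PGCs) apart from their somatic neighbours in the early embryo. They were taken by gene symbol, 3 of the 20153 gene identifiers in the table of the series, and all 3 passed the filter on low values and were tested. Their levels were read in 8 RNA sequencing libraries from 4 groups of 2. The E9.5 PGCs (Oct4gfpXCD1 strain, passage 0) were endogenous germ cells, about 250 to a library. The EGC group holds embryonic germ cell lines 4 and 7 of the same strain at passage 6, which had been derived from sorted E9.5 PGCs, with 500 cells to a library. The iPGCs were made in hanging drops from embryonic stem cells of the BVSC strain at passage 21 (1500 cells), and the PGCLCs, PGC-like cells, in aggregates from BVSC stem cells, also at passage 21 (300 to 500 cells). No group carried a labelled deletion, and the only treatments named are the culture media. Strain, origin and passage therefore differ together between the embryo-derived and the BVSC groups, and the number of cells also differs between groups. The part of the media and of the cell number in the levels was not tested. The number of embryos or cultures behind a library is not given in the sources used here. The labels call the libraries biological replicates, and p-values measure the spread between them.

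As background, bone morphogenetic protein (BMP) signals from the extraembryonic tissues, with WNT signals, switch on Prdm1 and Prdm14 in a few epiblast cells, and Tfap2c follows downstream of Prdm1. Prdm1, also called Blimp1, is a zinc finger repressor that shuts off the somatic mesoderm programme. Prdm14 is a related zinc finger protein that lowers fibroblast growth factor (FGF) signalling and the de novo DNA methyltransferases, and it also acts in naive embryonic stem cells. Tfap2c, or AP-2 gamma, is a DNA-binding factor needed to keep the germ cell fate, and it is also a regulator of the trophoblast. When PGCs are cultured with growth factors they can turn into EGCs, a self-renewing line like embryonic stem cells. The name BVSC is known for reporter transgenes driven by Prdm1 (Blimp1) and Dppa3 (Stella), so Prdm1 may be tied to how such cells are collected. How the iPGCs and PGCLCs were collected is not given in the sources used here.

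In GRCm38 coordinates, Prdm1 (ENSMUSG00000038151) lies on chromosome 10 from 44437177 to 44528501 on the minus strand. Prdm14 (ENSMUSG00000042414) lies on chromosome 1 from 13113457 to 13127163 on the minus strand, and Tfap2c (ENSMUSG00000028640) on chromosome 2 from 172549593 to 172558622 on the plus strand. GENCODE M21 gives 4 transcripts to Prdm1, 1 to Prdm14 and 6 to Tfap2c, and the table holds 1 summed value per gene. RefSeq (GRCm38.p6) supplied a promoter window for 1 of the 3 genes. The 250 bases before that Prdm1 start, chr10:44458749-44458998 on the minus strand, are shown because Prdm1 and Tfap2c had similar level patterns. The start lies well inside the span of the gene, so transcripts from other starts also enter the Prdm1 value. CpG dinucleotides are in capitals.
Prdm1 promoter: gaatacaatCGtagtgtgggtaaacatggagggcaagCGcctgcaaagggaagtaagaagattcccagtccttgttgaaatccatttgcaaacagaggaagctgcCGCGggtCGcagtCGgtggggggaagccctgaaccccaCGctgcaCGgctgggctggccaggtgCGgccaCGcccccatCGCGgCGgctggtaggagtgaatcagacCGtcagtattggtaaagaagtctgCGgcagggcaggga
It holds 15 CpGs, against a median of 6 in the same window of 32851 RefSeq promoters. The AP-2 motif GCCNNNGGC, which reads the same on both strands, was not in these letters, and 13.7% of the promoter windows hold it.

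Levels are FPKM, fragment counts scaled by transcript length and library size, so they can be compared between genes. Library 1 of the PGCs held transcripts of other embryonic cells. Of 8 listed visceral or yolk sac endoderm markers, 4 were at 1 FPKM or more in it. The list summed to 142 FPKM, against sums of 0.0559 to 4.55 FPKM in the other 7 libraries. Most of that sum in PGC library 1 came from Afp (82.6 FPKM) and Apoa1 (53.0 FPKM). Ttr (1.85 FPKM) and Gata6 also passed 1 FPKM in PGC library 1. Gata4 was at 0.472 FPKM in it, and Sox17, Sox7 and Amn were listed at 0. Of 7 myeloid and platelet markers, 6 were at 1 FPKM or more there, summing to 143 FPKM against 3.21 to 16.3 FPKM elsewhere. A list of 6 surface or neural ectoderm markers summed to 11.8 FPKM in PGC library 1 and to 8.33 and 6.11 FPKM in EGC lines 4 and 7. Their sums in the remaining libraries were 0.0253 to 1.23 FPKM. Pax6 was at 5.29 and 4.79 FPKM in EGC lines 4 and 7 and at 1.24 FPKM or less elsewhere. A set of 6 germ cell markers summed to 571 and 1313 FPKM in PGC libraries 1 and 2, to between 606 and 1184 FPKM in the iPGC and PGCLC libraries, and to 120 and 244 FPKM in EGC lines 4 and 7. Another 6 markers of naive pluripotency summed to 47.5 and 78.7 FPKM in PGCs and to 359 to 560 FPKM in the other libraries. Defining transcripts of each labelled cell type were therefore present, with the lowest germ cell sums in EGCs and the lowest pluripotency sums in PGCs. Singly, Dppa3, Kit and Itgb3 were lowest in both EGC lines, and Dppa5a, Fgf4, Tdgf1 and Nanog in both PGC libraries. The other markers did not follow their sums. Dnd1 was lowest in PGC library 1. EGC line 7 exceeded iPGC library 1 for Nanos3 and PGC library 1 for Ifitm3. Esrrb was lowest in EGCs, and Zfp42 in iPGC library 1 and PGCLC library 2 lay between its PGC values. Read totals are not stated, and the spacing of low FPKM values put the depth at about 2.61 M reads for iPGC library 1, 8.36 M for PGCLC library 1 and 11.6 to 19.3 M for the others. A depth of 4.74 M matched nearly as well in PGC library 1, and 17.4 M in PGCLC library 2.

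In PGC libraries 1 and 2 the Prdm1 level was 14.9 and 42.5 FPKM. It was 21.2 and 22.8 FPKM in iPGCs, 40.6 and 33.0 FPKM in PGCLCs, and 2.34 and 2.20 FPKM in EGC lines 4 and 7. The EGC lines lay far below the other 6 libraries, whose lowest value was 6.39 times the higher EGC value. Means ran from 36.8 ± 5.41 FPKM in PGCLCs (SD, n = 2) through 28.7 ± 19.4 in PGCs and 22.0 ± 1.15 in iPGCs to 2.27 ± 0.0997 in EGCs. PGC libraries enclosed both the PGCLC and the iPGC values, so PGCs are not separated from either by the spread. The PGCLC and iPGC values did not overlap, and how many of all tested genes show that was not counted. The low PGC value came from library 1, the one with the endoderm and myeloid transcripts and the lower germ cell sum. Their part in the Prdm1 value was not tested. In bulk libraries a smaller share of expressing cells and less RNA per cell cannot be told apart.

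Prdm14 was the lowest of the 3 in every library. It stood at 6.17 and 7.39 FPKM in PGCs, 4.29 and 10.6 FPKM in iPGCs, 20.8 and 6.78 FPKM in PGCLCs, and 0.949 and 1.38 FPKM in EGC lines 4 and 7. PGCLC library 1 was the high value, and without it the PGC, iPGC and PGCLC libraries lay between 4.29 and 10.6 FPKM. Group means were 13.8 ± 9.94 FPKM in PGCLCs (SD, n = 2), 7.45 ± 4.48 in iPGCs, 6.78 ± 0.865 in PGCs and 1.16 ± 0.303 in EGCs. The first 3 groups overlapped, and the lowest of their 6 libraries was 3.11 times the higher EGC line. That lowest library was iPGC library 1, the shallowest, where on a transcript of 2564 bases the value stands for roughly 28.7 reads. In EGC line 4 it stands for roughly 37.8 reads, so Prdm14 was detected in both EGC lines at this depth.

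Tfap2c was the steadiest. It stood at 23.1 and 30.2 FPKM in PGCs, 26.9 and 34.4 FPKM in iPGCs, 37.0 and 30.4 FPKM in PGCLCs, and 5.77 and 5.99 FPKM in EGC lines 4 and 7. The 6 libraries outside the EGC group stayed between 23.1 and 37.0 FPKM, all of them at least 3.85 times the higher EGC line. Means were 33.7 ± 4.67 FPKM in PGCLCs (SD, n = 2), 30.7 ± 5.26 in iPGCs, 26.6 ± 5.01 in PGCs and 5.88 ± 0.153 in EGCs. The iPGC values overlapped those of both PGCs and PGCLCs, while the higher PGC value (30.17 FPKM) lay just under the lower PGCLC value (30.45 FPKM).

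**Figure D1:**
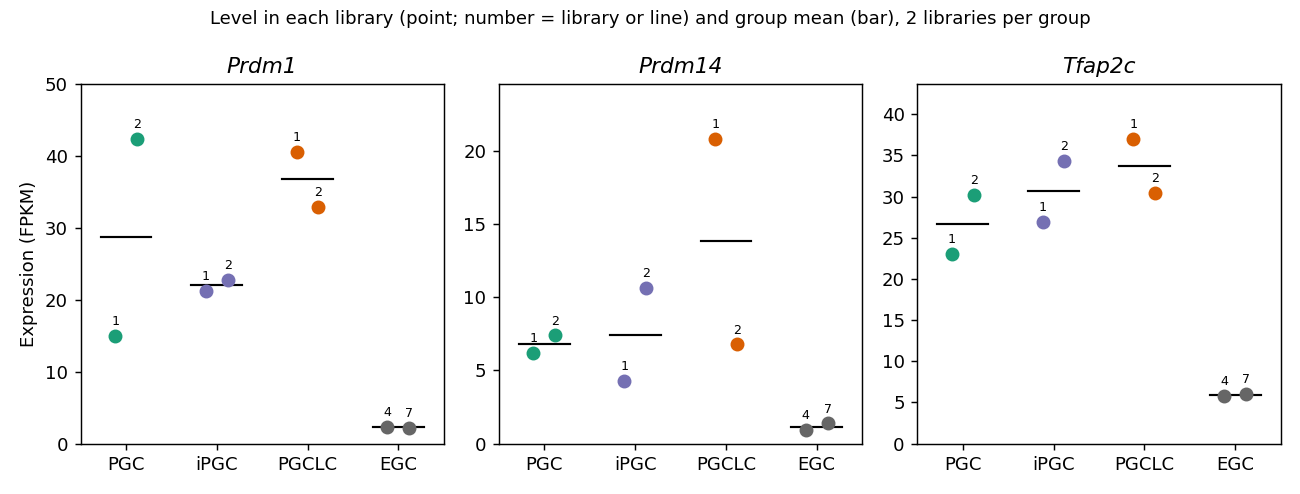
FPKM of Prdm1, Prdm14 and Tfap2c on the vertical axes, by group on the horizontal axes. Each point is a library, numbered as in the labels (4 and 7 are EGC lines), and each bar is the mean of 2 libraries. Both EGC lines lie below the other 6 libraries for each gene, and Prdm1 in PGCs (14.9 and 42.5 FPKM) and Prdm14 in PGCLCs (20.8 and 6.78 FPKM) are the widest pairs.

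The replicate gaps can be read against those of all 11083 tested genes on the log2(FPKM + 1) scale. Prdm1 differed by 1.45 between the 2 PGC libraries, where the median gap was 0.81 and 28.4% of tested genes had a larger one. Prdm14 differed by 1.49 between PGCLC libraries (median gap 0.70, larger in 17.8% of genes) and by 1.14 between iPGC libraries (median 0.44, larger in 13.2%). Tfap2c gaps were under the median in all 4 groups. In EGCs the gaps were 0.06 for Prdm1, 0.29 for Prdm14 and 0.05 for Tfap2c, against a median of 0.63. Tfap2c ranked above 83.9% to 89.0% of tested genes in the PGC, iPGC and PGCLC libraries, and above 56.5% and 55.6% in EGC lines 4 and 7. Prdm1 ranked above 76.5% to 91.0% and above 36.3% and 30.6%, and Prdm14 above 39.7% to 75.1% and above 22.6% and 21.9%.

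EGCs were first compared with the E9.5 PGCs from which such lines come, to ask what of the specification network remains once germ cells have become a pluripotent line. All 3 factors had lower values in EGCs, but none passed the test over all genes. The log2(FPKM + 1) difference, EGC minus PGC, was -3.01 ± 0.57 for Prdm1 (SE, 2 against 2 libraries; limma adjusted p = 0.0659, Benjamini-Hochberg over 11083 genes). For Tfap2c it was -1.99 ± 0.45 (limma adjusted p = 0.0839), and for Prdm14 -1.85 ± 0.70 (limma adjusted p = 0.234). Of the 3 members 0 were called, where 0.74% of all tested genes were. At an unadjusted p below 0.05 all 3 were lower, as were 7.6% of tested genes. The 95% intervals, from -4.31 to -1.71, from -3.02 to -0.97 and from -3.45 to -0.25, each lay below 0. Without PGC library 1, which leaves PGCs a lone library, the Prdm1 difference was -3.73. Prdm1 passed with a pseudocount of 0.1 (limma adjusted p = 0.0454) and with equal library medians (0.04995). When only the groups compared were fitted, its limma adjusted p was 0.392.

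EGCs were then set against iPGCs and PGCLCs. These comparisons share the EGC libraries with the one above, so they are not independent of it. Against iPGCs the difference was -2.82 ± 0.57 for Prdm1, -1.86 ± 0.70 for Prdm14 and -2.19 ± 0.45 for Tfap2c (limma adjusted p = 0.248, 0.426 and 0.248), and 0 of 3 passed where 0.117% of genes did. Against PGCLCs it was -3.53 ± 0.57 for Prdm1, -2.60 ± 0.70 for Prdm14 and -2.33 ± 0.45 for Tfap2c (limma adjusted p = 0.0888, 0.203 and 0.12), with 0 of 3 called against 0.0993% of genes. All 3 were lower in EGCs at an unadjusted p below 0.05 in both, as were 8.64% and 11.1% of tested genes. Over all tested genes the median difference was -0.40 and -0.39 in these comparisons, and relative to it Prdm1 stood at -2.41 and -3.14, Prdm14 at -1.46 and -2.21, and Tfap2c at -1.79 and -1.94. Without PGC library 1 or 2 the Prdm1 difference against PGCLCs stayed at -3.53, as these libraries enter that comparison only through the shared spread.

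Against the mean of PGCs, iPGCs and PGCLCs, EGCs had the most libraries on the other side, 2 against 6. Prdm1 differed by -3.12 ± 0.47 (limma adjusted p = 0.055), Tfap2c by -2.17 ± 0.37 (limma adjusted p = 0.0788) and Prdm14 by -2.10 ± 0.57 (limma adjusted p = 0.21). None of the 3 was called, against 0.144% of tested genes, and the unadjusted p was 0.000116, 0.00027 and 0.00566. At an unadjusted p below 0.05, 9.05% of tested genes were lower. In the spread of all genes, 0.271% had a lower difference than Prdm1, 1.29% than Tfap2c and 1.51% than Prdm14. For 3 of 3 members both EGC libraries lay below all 6 others, a pattern that 9.11% of tested genes showed, and 1.75% showed with a gap of 2-fold or more. Without PGC library 1 the difference was -3.36 for Prdm1 and -2.23 for Tfap2c. Without PGC library 2 it was -2.88 for Prdm1 and -2.11 for Tfap2c.

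**Figure D2:**
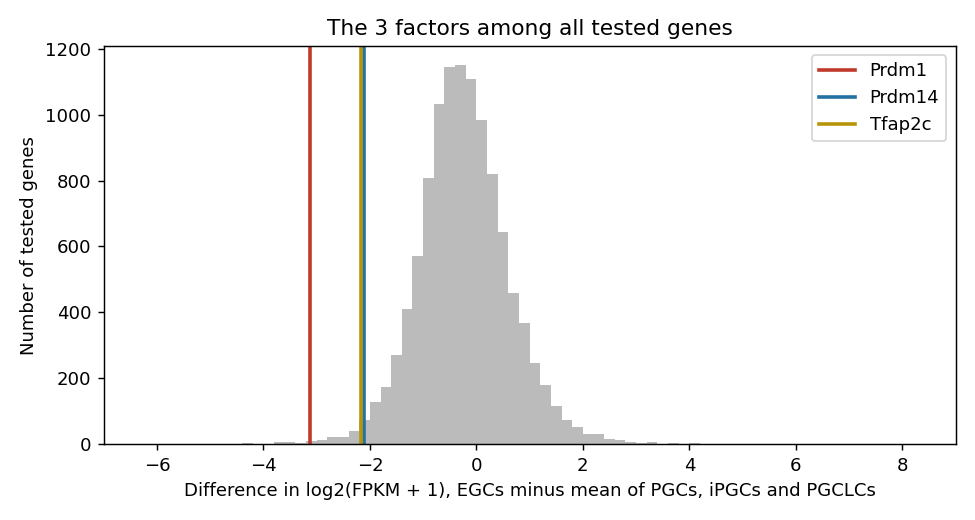
Histogram of the log2(FPKM + 1) difference of all 11083 tested genes, EGCs minus the mean of PGCs, iPGCs and PGCLCs (horizontal axis), with the number of genes on the vertical axis and a coloured line for each factor. The 3 lines stand in the lower tail, Prdm1 at -3.12, Tfap2c at -2.17 and Prdm14 at -2.10.

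Whether germ cells made in culture carry the 3 factors at the level of the embryo was read from iPGCs and PGCLCs against PGCs. In neither comparison was any of the 3 called, where 0.794% and 1.06% of tested genes were. At an unadjusted p below 0.05 in limma 0 of 3 were reached as well, against 19.5% of tested genes in each. For iPGCs minus PGCs the difference was -0.19 ± 0.57 for Prdm1 (95% interval -1.50 to 1.11), 0.01 ± 0.70 for Prdm14 (-1.59 to 1.62) and 0.20 ± 0.45 for Tfap2c (-0.82 to 1.22), with limma adjusted p of 0.883, 0.997 and 0.842. For PGCLCs minus PGCs it was 0.52 ± 0.57 for Prdm1 (-0.79 to 1.82), 0.75 ± 0.70 for Prdm14 (-0.85 to 2.35) and 0.34 ± 0.45 for Tfap2c (-0.69 to 1.36), with limma adjusted p of 0.664, 0.601 and 0.723. These intervals leave room for differences of 1 on the log2 scale in either direction for Prdm1 and Prdm14 in iPGCs. They leave room for a rise of 1 for Tfap2c in iPGCs and for all 3 in PGCLCs. The test therefore does not show that the levels are alike. The median of all genes was 0.47 higher in iPGCs and 0.44 higher in PGCLCs. Relative to it, Prdm1, Prdm14 and Tfap2c stood at -0.66, -0.45 and -0.27 in iPGCs, and at 0.08, 0.31 and -0.10 in PGCLCs. With library medians made equal, the sign turned for Prdm14 and Tfap2c in iPGCs and for Prdm1 and Tfap2c in PGCLCs, so no direction is given.

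PGCLCs and iPGCs came from stem cells of 1 strain by different routes. All 3 means were higher in PGCLCs, by 0.71 ± 0.57 for Prdm1 (95% interval -0.59 to 2.01), 0.73 ± 0.70 for Prdm14 (-0.87 to 2.34) and 0.14 ± 0.45 for Tfap2c (-0.88 to 1.16). The limma adjusted p was 1 for each, 0 of 3 passed, and 0.018% of tested genes did. At an unadjusted p below 0.05 it was 0 of 3, beside 4.68% of tested genes. Prdm1 was the member whose libraries did not overlap, at 33.0 and 40.6 FPKM in PGCLCs and 21.2 and 22.8 FPKM in iPGCs. How many of all tested genes separate these groups in that way was not counted, so this is not read as a trait of Prdm1. The Prdm14 value rested on PGCLC library 1, and without it the difference was -0.01.

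**Figure D3:**
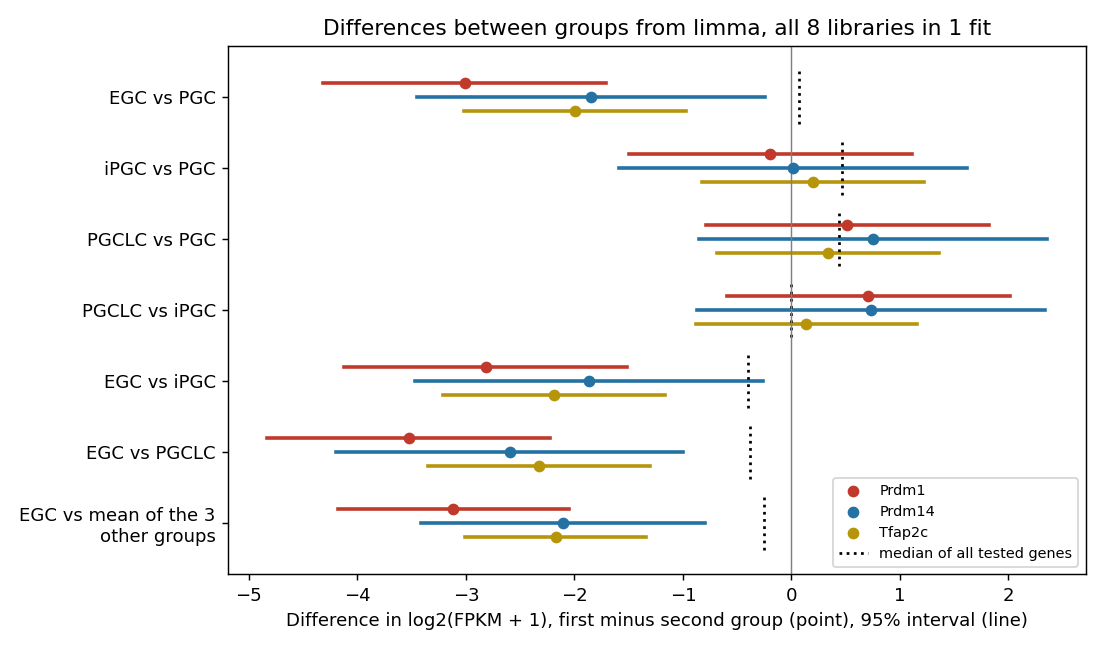
Difference in log2(FPKM + 1), first minus second group (horizontal axis), for 7 comparisons (vertical axis). Points are limma estimates for the 3 factors, lines their 95% intervals, and dotted bars the median of all tested genes. The intervals of all 4 comparisons with EGCs lie below 0 for each factor, and the intervals of the other 3 include 0.

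The balance between the factors was read as the ratio of FPKM within each library. The Prdm1 to Tfap2c ratio was 0.405 and 0.367 in EGC lines 4 and 7. In PGC libraries 1 and 2 it was 0.648 and 1.41, in iPGCs 0.787 and 0.664, and in PGCLCs 1.10 and 1.08. Both EGC ratios were the lowest of the 8, with Tfap2c above Prdm1 by more than in any other library. The Tfap2c to Prdm14 ratio ran from 1.78 in PGCLC library 1 to 6.29 in iPGC library 1, and the EGC lines, at 6.08 and 4.35, lay inside that range. The Prdm1 to Prdm14 ratio was 2.46 and 1.60 in EGC lines 4 and 7 and 1.95 to 5.74 elsewhere. Within the PGC, iPGC and PGCLC groups it varied by over 2-fold between replicates, 2.42 and 5.74, 4.95 and 2.15, and 1.95 and 4.87. These ratios were not tested.

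The genes most like each factor were sought among 4052 tested genes with a mean of at least 10 FPKM, by Pearson r of log2(FPKM + 1) over the 8 libraries. The libraries fall into EGCs and the rest, so r largely reflects that divide, and r over the 6 libraries outside the EGC group is given after it. For Prdm1 the closest gene was Slc9a3r1, which encodes a scaffold protein under the plasma membrane (r = 0.985, then 0.858). Next were Tfap2c itself (0.974, then 0.714), the tRNA methyltransferase subunit gene Trmt6 (0.970, then 0.667), Jpt2 (0.967, then 0.809) and the pyruvate dehydrogenase subunit gene Pdhb (0.967, then 0.935). Slc9a3r1 stood at 7.33 and 6.26 FPKM in EGC lines 4 and 7, against 22.0 and 47.8 FPKM in PGCs, 34.8 and 44.8 FPKM in iPGCs, and 45.9 and 45.5 FPKM in PGCLCs. For Tfap2c the closest genes were Slc9a3r1 (0.983, then 0.859), Trmt6 (0.982, then 0.697), Prdm1 (0.974, then 0.714), the constitutive heat shock chaperone gene Hspa8 (0.970, then 0.505) and Jpt2 (0.968, then 0.926). Prdm1 and Tfap2c thus stood in each other's list of 5, and shared Slc9a3r1, Trmt6 and Jpt2. Prdm14, whose mean is under that minimum of 10 FPKM, could not enter the lists of the other two. Over the 6 libraries outside the EGC group its r was 0.809 with Tfap2c and 0.515 with Prdm1, beside 0.714 between Prdm1 and Tfap2c. The closest genes to Prdm14 were Sccpdh (0.979, then 0.930), the mitochondrial import gene Tomm7 (0.964, then 0.930), the vesicle fusion gene Vamp3 (0.949, then 0.877), the glycosyltransferase gene Galnt7 (0.949, then 0.829) and the replication factor C gene Rfc4 (0.942, then 0.817). In PGCLC library 1, where Prdm14 was highest, Sccpdh was at 50.3 FPKM against 16.5 to 22.5 FPKM in the other PGC, iPGC and PGCLC libraries.

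Other members of both protein families were read beside them. Of 13 further Prdm genes 7 were tested and 0 were called in any of the 7 comparisons, and none of the 7 separated both EGC lines from the other 6 libraries. The count was also 0 of 7 in each at an unadjusted p below 0.05 in limma, which 4.68% to 19.5% of tested genes reached. Over all tested genes 0.018% to 1.06% were called, and 9.11% had both EGC lines below and 3.08% above all others, so 0 of so few genes says little about the family. Prdm2 and Prdm4 were present in every library, Prdm2 at 4.45 to 12.6 FPKM and Prdm4 at 5.23 to 12.4 FPKM. In EGC line 4 Prdm2 and Prdm4 stood at 8.42 and 8.73 FPKM, above Prdm1 and Prdm14. The meiotic factor gene Prdm9 was at 4.51 FPKM in PGC library 1 and at 1.63 FPKM or less in the other 7 libraries. None of the 4 other Tfap2 genes passed the filter on low values. Tfap2a, a factor of surface ectoderm and neural crest, was at 8.02 FPKM in PGC library 1 and at 0.882 FPKM or less elsewhere, so Tfap2c was the main Tfap2 transcript in all 8 libraries.

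Upstream of the factors, 15 of 20 BMP and WNT signalling genes were tested and 0 were called in any comparison, where 0.018% to 1.06% of all tested genes were. At an unadjusted p below 0.05 in limma, 0 to 3 of 15 were lower and 0 to 1 higher, depending on the comparison. Over all tested genes 4.68% to 19.5% reached that threshold in either direction. The 3 of 15 came in EGCs against PGCLCs, where 11.1% of tested genes were lower. Their median difference between EGCs and PGCs was -0.58, beside 0.07 for all tested genes. The ligand gene Bmp4 was at 1.26 and 12.7 FPKM in PGCs, 2.16 and 1.76 FPKM in iPGCs, 22.4 and 10.3 FPKM in PGCLCs and 4.37 and 1.33 FPKM in EGCs. The PGC range overlapped those of the other groups, while both PGCLC values lay above the iPGC and EGC values. How many of all tested genes show that was not counted. Id1, a direct target of BMP signalling, was listed at 0 in both EGC lines and stood at 1.43 to 6.27 FPKM in the other 6 libraries. The receptor gene Bmpr2 and the BMP target gene Id2 also had both EGC lines below all others, which made 3 of 15, beside 9.11% of all tested genes. The mesoderm factor T, which takes part in activating Prdm1 and Prdm14, was at 37.9 FPKM in PGC library 1, listed at 0 in library 2, and at 2.76 FPKM or less in the remaining libraries.

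Of 20 partners and competence factors, 19 had an entry and all 19 were tested. Relative to PGCs, Nanog rose by 2.85 ± 0.48 both in iPGCs (limma adjusted p = 0.0426) and in PGCLCs (0.042). That is 1 of 19, where 0.749% and 0.938% of tested genes rose, and no other partner was called in any comparison. Nanog is a pluripotency factor that can switch on Prdm1 and Prdm14 in epiblast-like cells. Its level was 6.69 and 16.1 FPKM in PGCs, 73.2 and 90.9 FPKM in iPGCs, 81.2 and 82.6 FPKM in PGCLCs and 46.9 and 45.3 FPKM in EGCs. Without PGC library 1 neither Nanog call was made. Otx2, a barrier to germ cell entry, had no value above 0 in PGCs and stood at 12.6 and 5.95 FPKM in EGCs, 8.09 and 5.37 FPKM in iPGCs and 29.0 and 0.487 FPKM in PGCLCs. Cbfa2t2, the co-repressor that binds Prdm14, was present in every library at 17.2 to 58.8 FPKM, and Prmt5, an arginine methyltransferase that works with Prdm1, at 30.3 to 107 FPKM. Sall4, at 193 and 194 FPKM in PGCs and 56.7 and 60.3 FPKM in EGCs, was 1 of 5 members with both EGC lines below all others, with Sox2, Wdr77, Ezh2 and Esrrb. That is 5 of 19, beside 9.11% of all tested genes. Lin28a, an RNA-binding protein that helps Prdm1 translation, was at 38.49 and 48.28 FPKM in EGCs and at 6.87 to 38.46 FPKM elsewhere, so the lower EGC line and PGC library 2 were nearly equal. Both EGC lines lay above all others in 3.08% of tested genes.

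Early PGC genes are those that act with or after the 3 factors. Of 17 listed, 13 were tested. Relative to PGCs, 2 fell in EGCs and 0 rose, beside 0.217% and 0.523% of all tested genes. Dppa3, which protects methylation in the zygote, fell by 2.91 ± 0.51 (limma adjusted p = 0.0488), and the integrin gene Itgb3 fell by 3.96 ± 0.60 (limma adjusted p = 0.0347). Neither call was made without PGC library 1. The list median was -1.64 beside 0.07 for all genes, with 11 negative and 2 positive values. Without PGC library 1 the list median was -2.73, with no median of all genes taken beside it. In 5 of the 13 both EGC lines lay below all other libraries, Dppa3, Kit, Ifitm1, Itgb3 and Cxcr4, beside 9.11% of all tested genes. Ifitm1, an interferon-induced membrane protein gene, stood at 149 to 316 FPKM outside the EGCs and at 14.5 and 50.7 FPKM in EGC lines 4 and 7. Nanos3, a repressor of translation that keeps PGCs alive, was at 7.37 and 22.3 FPKM in PGCs but at 0.737 and 2.13 FPKM in iPGCs. This iPGC minus PGC difference, -2.58 ± 0.78, was not called (limma adjusted p = 0.139). How many of all tested genes separate iPGCs from PGCs so was not counted. The iPGC values of Tfap2c and Prdm14 overlapped those in PGCs, and those of Prdm1 lay between the PGC values. In iPGCs and PGCLCs against PGCs 0 of 13 were called, with medians of 0.07 and 0.22 beside 0.47 and 0.44 for all genes. Without PGC library 1 both medians turned to -0.65. The median of all tested genes without that library was not taken, so the turn is not read as a result of the list.

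**Figure D4:**
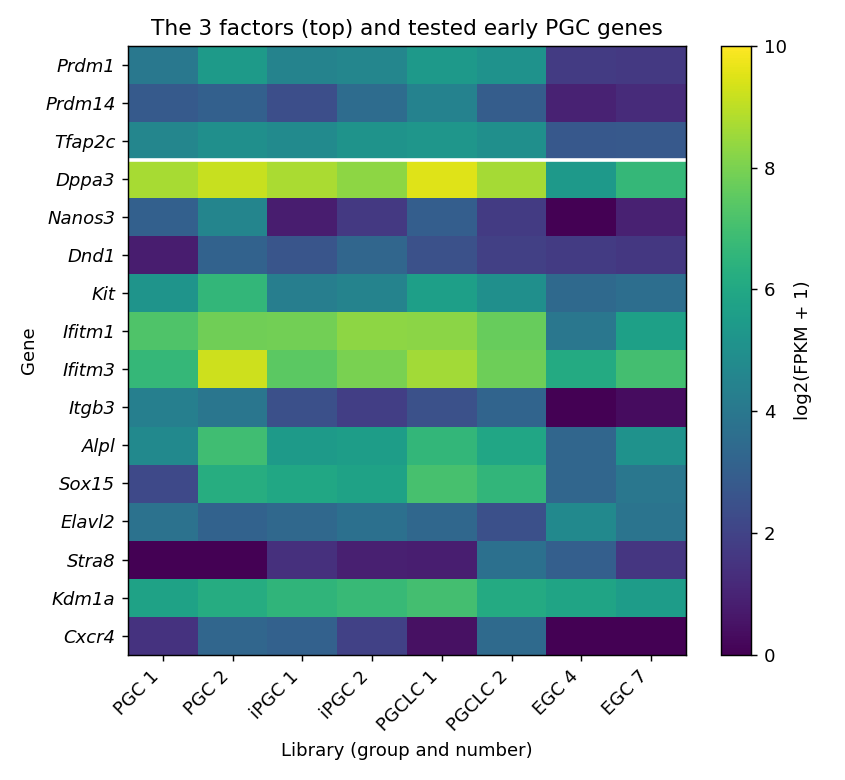
Log2(FPKM + 1) of the 3 factors (top 3 rows) and of 13 tested early PGC genes (rows below the white line) in the 8 libraries (columns). The 3 factors, Itgb3 and Ifitm1 have their lowest values in the EGC columns, while Elavl2 has both EGC lines above the other 6 libraries.

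All 12 genes listed as held down by Prdm14 were tested. In EGCs against PGCs 2 rose, the de novo DNA methyltransferase gene Dnmt3b by 4.36 ± 0.76 (limma adjusted p = 0.0488) and its cofactor gene Dnmt3l by 4.68 ± 0.60 (limma adjusted p = 0.0239), and 0 fell, where 0.523% of tested genes rose and 0.217% fell. Dnmt3b was at 4.52 and 0.141 FPKM in PGCs, 21.3 and 14.5 FPKM in iPGCs, 11.6 and 8.44 FPKM in PGCLCs and 66.1 and 38.8 FPKM in EGCs. Neither PGC library had a Dnmt3l value above 0, and Dnmt3l also rose in iPGCs (51.8 and 53.4 FPKM, limma adjusted p = 0.0107) and in PGCLCs (13.4 and 15.6 FPKM, limma adjusted p = 0.0351). That was 1 of 12 in each, where 0.749% and 0.938% of tested genes rose. Without PGC library 1 the Dnmt3l call in PGCLCs was not made. When only the groups compared were fitted, 0 of all tested genes were called against PGCs in limma for EGCs, iPGCs or PGCLCs (1319, 2271 and 1438 at an unadjusted p below 0.05), so no gene of any list was called against PGCs there, Nanog, Dppa3, Itgb3 and Dazl included. Of the FGF receptor genes in the list, Fgfr2 was at 24.4 and 31.9 FPKM in PGCs and 0.358 and 4.94 FPKM in EGCs, a difference of -3.35 ± 0.69 that did not pass (limma adjusted p = 0.0715). Fgfr2, Fgfr1 and Dnmt1 had both EGC lines below all others, 3 of 12 beside 9.11% of tested genes. The median of the list was 0.19 in EGCs against PGCs, beside 0.07 for all genes. Without PGC library 1 the list median was 0.63, with no median of all genes taken beside it.

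Of 16 somatic genes listed as held down by Prdm1, 9 were tested and 0 were called in any comparison, where 0.018% to 1.06% of tested genes were. Depending on the comparison, 0 to 2 of 9 were higher and 0 to 1 lower at an unadjusted p below 0.05 in limma. Over all tested genes 4.68% to 19.5% reached that threshold in either direction. With Prdm1 at its lowest in EGCs, the list median against PGCs was -0.47, beside 0.07 for all tested genes. Without PGC library 1 the list median turned to 0.47, with no median of all tested genes taken beside it. Hoxb1, Cdx1 and Mesp1 were not tested and stayed under 1 FPKM in all 8 libraries. The other listed genes passed 1 FPKM in at least 1 library. Lefty2 was at 7.00 and 13.2 FPKM in EGCs, 8.85 and 4.67 FPKM in iPGCs, and 10.4 and 1.08 FPKM in PGCLCs. In PGCs Lefty2 was listed at 0 in library 1 and stood at 0.272 FPKM in library 2. Hand1 reached 10.5 FPKM in PGCLC library 2, and Myc 8.33 FPKM in EGC line 7. Fgf8 was at 2.89 and 3.30 FPKM in EGCs, 3.02 and 2.39 FPKM in iPGCs and 0.558 FPKM or less in PGCs and PGCLCs. Of 14 later germ cell genes 11 were tested. Dazl, a gene for an RNA-binding protein of germ cells, stood at 11.9 and 9.65 FPKM in PGCLCs and at 0 and 0.156 FPKM in PGCs, and it rose (difference 3.45 ± 0.57, limma adjusted p = 0.042). That is 1 of 11, where 0.938% of tested genes rose, and no other gene of that list was called in any comparison. That call was not made without PGC library 1. In EGCs Dazl was at 1.12 and 0.805 FPKM.

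Tfap2c and Prdm1 are also expressed outside the germ line, so markers of such cells were read beside them. A list of 7 trophoblast markers summed to 3.51 and 6.52 FPKM in EGCs, against 12.1 and 1.96 FPKM in PGCs, 15.5 and 15.8 FPKM in iPGCs, and 15.9 and 20.9 FPKM in PGCLCs. Elf5, a defining trophoblast gene, was at 0.915 FPKM or less in all 8 libraries, and Cdx2 at 2.75 FPKM or less. The other 5 reached higher values, up to 10.5 FPKM for Hand1 and 7.39 FPKM for Gata3 in PGCLC library 2, 9.77 FPKM for Eomes in PGCLC library 1, 8.28 FPKM for Gata3 in PGC library 1, 3.84 FPKM for Ascl2 and 3.73 FPKM for Krt7. Their part in the Tfap2c level was not tested. PGC library 2 had the lowest trophoblast sum and 0 of 8 endoderm markers at 1 FPKM or more. In the same library 4 of 7 mesoderm markers were at 1 FPKM or more, summing to 27.6 FPKM. That sum was 55.3 FPKM in PGC library 1 and 0.874 to 16.8 FPKM in the other groups. The myeloid marker Fcer1g was at 4.85 FPKM in PGC library 2. The part of other cells in its Prdm1 and Tfap2c values was not tested.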

How the data were processed

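RNA was amplified with an Ovation kit and sequenced as 50-base single-end reads from 8 pooled libraries in 2 lanes, per the labels' protocols. The deposited table holds FPKM made by the authors, 1 column per library; TopHat2, Cufflinks and GRCm38 (mm10) are named per the submitters' processing notes. Their versions, the annotation, filters and strand: not given in the sources used here. Of 20171 rows, 18 repeats of an identifier were dropped, keeping the highest mean. GENCODE M21 held 19747 of 20153 identifiers.

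The test took the 11083 genes that reached 1 FPKM in 2 or more libraries, on log2(FPKM + 1), which understates changes of low genes. The test was limma 3.58.1 in R 4.3.3 (trend, robust, all 8 libraries, 4 residual degrees of freedom), two-sided, with Benjamini-Hochberg adjustment within each of 7 comparisons and a threshold of 0.05. It was tested on simulated data. Approximate depths came from the steps between low FPKM of single-transcript genes, assuming fragments of 200 bases. A value of exactly 0 can be an estimate that failed, hence the wording listed at 0.

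The members and lists were chosen with earlier results of these data known. Named genes are the members, genes of the lists, and for each member the 5 most alike genes. Predicted genes, ribosomal protein genes, small RNAs and pseudogenes were skipped there. Some genes stand in more than 1 list. Each library was left out in turn; other alternatives were pseudocounts of 0.1 and 5, a filter at 5 FPKM or none, library medians made equal, a fit of the compared groups alone, and a block on the replicate number. List counts without PGC library 1 were added after seeing the data.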

Additional observations from a re-analysis of the deposited data

How the results depend on the processing

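All 165 alternative values of the comparisons with EGCs were negative for the 3 factors, from -3.96 to -0.93 in log2 difference. Of these, 155 stayed on the same side of the threshold and 10 passed it, 9 of them for Prdm1. Prdm1 passed against PGCs and against the mean of the 3 groups with a pseudocount of 0.1 (-3.42, limma adjusted p = 0.0454, and -3.53, 0.0472). It passed against PGCs with equal library medians (-3.11, 0.04995) and against the 3 groups with a filter at 5 FPKM (-3.12, 0.0412). The remaining passes came from fits without a PGC library, which leave PGCs a lone library. With each library left out, Prdm1 ran from -3.73 to -2.29 against PGCs, from -3.67 to -3.38 against PGCLCs and from -3.36 to -2.88 against the 3 groups, and Tfap2c from -2.23 to -2.11 against the latter. Outside EGCs, 10 of 135 values changed sign. With equal medians Prdm14 and Tfap2c in iPGCs against PGCs became -0.48 and -0.30, and Prdm1 and Tfap2c in PGCLCs against PGCs -0.024 and -0.20. Leaving out libraries gave, against PGCs, -0.92 to 0.53 (Prdm1) and -0.55 to 0.58 (Prdm14) in iPGCs and -0.21 to 1.24 (Prdm1) in PGCLCs, and, for PGCLCs against iPGCs, -0.010 to 1.48 (Prdm14) and -0.032 to 0.31 (Tfap2c).

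Counts of called genes moved more. The main counts were 82 for EGCs, 88 for iPGCs and 117 for PGCLCs against PGCs, 2 for PGCLCs against iPGCs, 13 and 11 for EGCs against iPGCs and PGCLCs, and 16 for EGCs against the 3 groups. A pseudocount of 0.1 gave 166 (iPGCs), 183 (PGCLCs) and 25 (EGCs against the 3 groups). A pseudocount of 5 gave 31, 34 and 32 against PGCs and 1 for PGCLCs against iPGCs. No filter gave 8, 9 and 4 against PGCs, 7 for PGCLCs against iPGCs and 4 for EGCs against PGCLCs. A filter at 5 FPKM gave 30 for EGCs against the 3 groups. Equal medians gave 46, 54 and 27 for iPGCs, PGCLCs and EGCs against the 3 groups. Fitting only the groups compared gave 0 calls for each group against PGCs in limma, with 1319 (EGCs), 2271 (iPGCs) and 1438 (PGCLCs) genes under an unadjusted p of 0.05, and 4 for PGCLCs against iPGCs. Leaving out each library gave 7 to 107, 5 to 222 and 0 to 289 against PGCs, 0 to 5 for PGCLCs against iPGCs, 5 to 17 and 0 to 39 for EGCs against iPGCs and PGCLCs, and 5 to 55 against the 3 groups. The counts of 0 came without either PGCLC library, where 379 to 2061 genes were under an unadjusted p of 0.05 in limma. The lone library of a group is then assumed to vary like the others. The cause was not tested.

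Deviations of same-numbered libraries correlated at 0.01, -0.03 and 0.06, so no effect shared by number was seen. Such a correlation cannot show whether same-numbered libraries were handled together. The replicate block gave 41 calls for iPGCs and 27 for PGCLCs against PGCs and 1 for PGCLCs against iPGCs, with none of the 3 factors called. With 2 libraries per group only large differences can be called.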
